A study of Mus musculus with 4 samples.

Results

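Ccr6 and Ccl20 are the receptor and the ligand of a chemokine pair that draws Th17 cells, the IL-17-producing CD4 T helper cells, into inflamed joints. The 2 genes were chosen by symbol, as every probe set that the platform annotation assigns to Ccr6 or Ccl20, and they are 2 of 18193 genes on the array. Each gene had 1 probe set. CCR6 is a G protein-coupled receptor that is found on Th17 cells, on a part of regulatory T cells, on B cells and on some dendritic cells. CCL20 is its chemokine ligand, made by epithelium, synovial cells and macrophages under inflammatory signals and also by Th17 cells themselves. Binding of CCL20 activates inhibitory G proteins, which steer the cell up the chemokine gradient.

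The study compared IL-17-producing T cells of different origin, by total RNA on Affymetrix arrays with biotin labelling. C57BL/6 mice aged 8 to 10 weeks gave all cells, from spleen and lymph nodes, and after culture these were sorted by IL-17, read from GFP, and by Foxp3, read in the APC channel. The exFoxp3Th17 cells arose from Foxp3+ CD4 T cells in Th17 conditions and were sorted as IL-17 positive and Foxp3 negative. Th17 cells arose from naive CD4 T cells in Th17 conditions and passed the same gate. Treg cells were Foxp3+ CD4 T cells kept in the presence of IL-2 and sorted as Foxp3 positive and IL-17 negative. Th0 cells were naive CD4 T cells cultured in Th0 conditions and sorted as negative for both. The labels used here name no cytokine of the Th0 or Th17 conditions, no culture time and no number of mice. Each population was measured on 1 array, so no spread between samples and no p-value can be given, and every difference is between single arrays. Values are linear signal intensities. A signal of 12.1, the median of all probe sets, served as a floor, and any lower value was raised to it for the ratios. A gene was called higher or lower at a 2-fold difference with the higher array above the floor. Fewer cells that express a gene and less RNA per cell cannot be told apart in such bulk samples.

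The arrays were checked against their labels. The trimmed mean signal was 99.2 to 99.3 on the 4 arrays. Foxp3 was at 584.9 in Treg and below the floor on the other arrays (4.3 to 8.0), as gated. Il17a was below the floor on all 4 arrays (7.1 to 9.8), so its probe set does not separate the IL-17 positive gates. Xist, an RNA of female cells, was at 3766 in exFoxp3Th17 and at 7.4 to 10.8 on the others, and Y-linked Eif2s3y at 4.7 against 654.5 to 875.8. Every ratio below that has exFoxp3Th17 on top therefore also crosses a difference in sex. In exFoxp3Th17 over Th17, origin and sex cannot be told apart; over Treg, culture and gate cannot be told apart from sex; and over Th0, none of these can.

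Ccr6 was found at its highest level in the Th17 cells that came from Foxp3+ precursors. Its signal was 1522 in exFoxp3Th17, 328.5 in Th17, 54.5 in Treg and 19.6 in Th0, above the floor on each of the 4 arrays. The levels thus ran down in the order exFoxp3Th17, Th17, Treg, Th0, and each array lay 2-fold or more above the next. The steps between neighbours were 4.63-fold for exFoxp3Th17 over Th17, 6.02-fold for Th17 over Treg and 2.78-fold for Treg over Th0. Whether any of these steps exceeds the spread between cultures is unknown. Within these arrays, 2515 genes had a pair of probe sets above the floor on all 4. The log2 ratios of a pair differed with a robust SD of 0.36 to 0.50. That SD compares probe sets on the same arrays and does not measure the spread between cultures. The smallest step of Ccr6 was 1.47 on the log2 scale, or 1.07 when the floor was added to each signal.

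Ccl20 was above the floor on both Th17 arrays and below it on the other two. Its signal was 426.9 in exFoxp3Th17 and 169.2 in Th17, against 2.7 in Treg and 1.0 in Th0, values with no order between them. The ligand and its receptor were thus both brightest in exFoxp3Th17, followed by Th17, but Treg cells, which had a Ccr6 signal above the floor, had a Ccl20 signal below it.

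**Figure D1:**
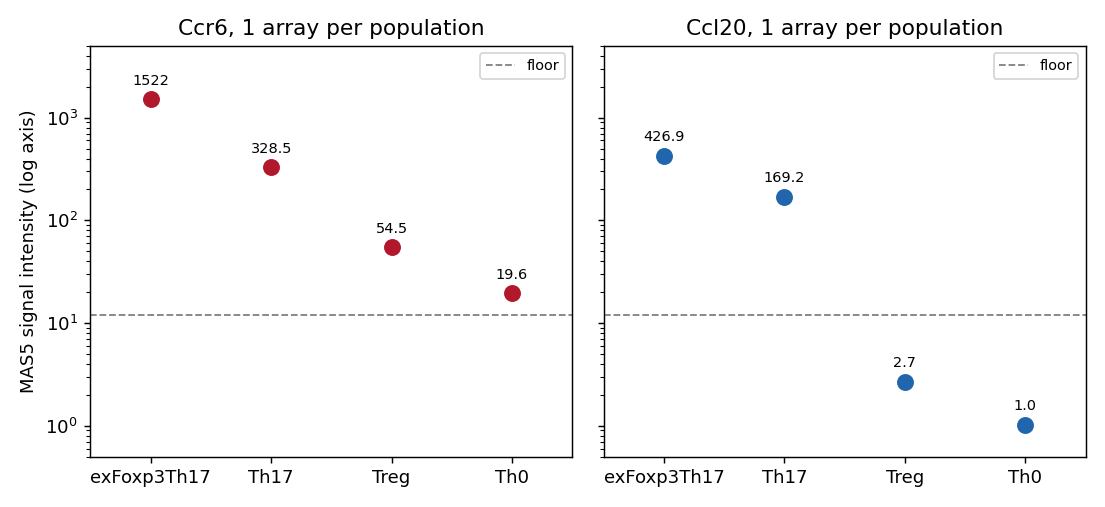
Signal of Ccr6 (left) and Ccl20 (right) on the 4 arrays, on a log axis, with 1 point per array and the floor of 12.1 as a dashed line. Ccr6 lies above the floor on each array, with its highest signal in exFoxp3Th17 (1522) and its lowest in Th0 (19.6); Ccl20 lies above the floor in exFoxp3Th17 (426.9) and Th17 (169.2) only.

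The DNA just upstream of the 2 genes is shown because receptor and ligand were both brighter on the Th17 arrays. The sequences are RefSeq promoter windows of build GRCm38.p6, from 250 bases before a start site to 50 after it, and capitals mark matches to the motifs described after them. Ccr6 has 2 annotated start sites on chromosome 17, at windows chr17:8235793-8236092 and chr17:8242276-8242575 on the plus strand, and Ccl20 has 1 on chromosome 1, at chr1:83116516-83116815 on the plus strand.
Ccr6, upstream start: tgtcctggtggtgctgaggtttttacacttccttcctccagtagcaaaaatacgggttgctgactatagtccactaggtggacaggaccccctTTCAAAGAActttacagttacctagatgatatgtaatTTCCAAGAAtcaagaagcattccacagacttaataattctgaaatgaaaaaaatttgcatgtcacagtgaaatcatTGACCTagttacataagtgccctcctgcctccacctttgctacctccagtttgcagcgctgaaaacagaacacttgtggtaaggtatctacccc
Ccr6, downstream start: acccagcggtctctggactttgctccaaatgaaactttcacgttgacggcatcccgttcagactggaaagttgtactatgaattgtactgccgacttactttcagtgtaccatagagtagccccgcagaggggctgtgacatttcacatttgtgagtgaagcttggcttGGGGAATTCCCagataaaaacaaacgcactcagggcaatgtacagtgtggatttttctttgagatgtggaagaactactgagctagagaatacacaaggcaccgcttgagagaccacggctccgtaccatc
Ccl20: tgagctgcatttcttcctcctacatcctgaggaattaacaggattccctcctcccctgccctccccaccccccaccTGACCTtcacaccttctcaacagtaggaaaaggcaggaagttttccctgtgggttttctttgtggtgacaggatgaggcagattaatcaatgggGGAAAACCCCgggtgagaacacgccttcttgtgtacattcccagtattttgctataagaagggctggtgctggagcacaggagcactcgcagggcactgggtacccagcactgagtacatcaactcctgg
The motifs searched on both strands were AGGTCA, the core of the ROR nuclear receptor element, TTCNNNGAA for STAT factors, TGANTCA for AP-1, TATAAA for the TATA box and the NF-kB consensus. The window of the upstream Ccr6 start held the ROR core on the minus strand, 44 to 39 bases before the start, and the STAT letters at 157 to 149 and at 120 to 112 bases before it. The window of the downstream Ccr6 start held overlapping NF-kB matches 81 to 71 bases before the start. The Ccl20 window held the ROR core on the minus strand, 174 to 169 bases before the start, and the NF-kB consensus on the minus strand at 80 to 71 bases before it. Among all 32851 promoter windows of this length, 16.3% held the ROR core, 8.30% the STAT letters and 8.46% the NF-kB consensus. The AP-1 and TATA letters, held by 7.81% and 13.6% of windows, were not in these 3 windows. A match is a description of the letters and not a binding site, and the arrays do not tell which Ccr6 start was used.

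The main comparison of the study set exFoxp3Th17 against Th17, cells that passed the same gate after the same type of culture but came from different precursors. Both genes were higher in exFoxp3Th17, in a comparison in which 7.48% of the 11769 genes above the floor on any array were called higher and 7.27% lower. Ccr6 had a log2 ratio of 2.21, reached or exceeded by 111 of these genes (0.943%), itself included as in the counts that follow. Ccl20 was 2.52-fold higher, a log2 ratio of 1.34, which 470 genes (3.99%) reached or exceeded. The median log2 ratio of all genes was 0.03.

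Th17 conditions with the IL-17 gate were compared with the Th0 culture in naive-derived cells, and with the IL-2 culture in cells of Foxp3+ origin. In Th17 against Th0, where 8.22% of genes were called higher and 6.88% lower, Ccr6 was 16.7-fold higher (328.5 against 19.6) and Ccl20 at least 14.0-fold higher (169.2 against a value below the floor). In exFoxp3Th17 against Treg, where 11.3% were higher and 9.94% lower, Ccr6 was 27.9-fold higher (1522 against 54.5) and Ccl20 at least 35.3-fold higher. With values below the floor set to it, 18 genes of 11769 reached the Ccr6 ratio in the comparison with Treg, and 8 reached the bound of Ccl20. Culture, gate and sex all differ in that comparison. Both genes were thus higher in the IL-17 positive cells of Th17 conditions for each of the 2 precursors.

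The size of that difference was set side by side for both origins. For Ccr6 the log2 ratio was 4.80 in Foxp3-derived cells and 4.06 in naive-derived cells, a difference of 0.74 that 22.5% of genes reached or exceeded. For Ccl20 the log2 ratios were at least 5.14 and at least 3.81, and their difference of 1.34 is by construction the ratio of exFoxp3Th17 to Th17, since Treg and Th0 both stand at the floor. The ratios have unlike references: Treg came from an IL-2 culture and a Foxp3+ gate, Th0 from a Th0 culture and a gate negative for both. Only the ratio over Treg crosses sex. Origin cannot be told apart from these in the difference, and with 1 array per population neither difference could be tested.

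The remaining comparisons were Treg against Th0, Th17 against Treg and exFoxp3Th17 against Th0. Each of them crosses origin, culture and gate together, which cannot be told apart. In Treg against Th0, where 5.56% of genes were called higher, Ccr6 was 2.78-fold higher (54.5 against 19.6) and Ccl20 was below the floor on both arrays. In Th17 against Treg, where 5.26% were higher, Ccr6 was 6.02-fold higher and Ccl20 at least 14.0-fold higher. In exFoxp3Th17 against Th0, where 9.92% were higher, Ccr6 was 77.5-fold higher (1522 against 19.6), a ratio that 8 genes of 11769 reached, and Ccl20 at least 35.3-fold higher. These 6 comparisons draw on the same 4 arrays and do not support one another.

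**Figure D2:**
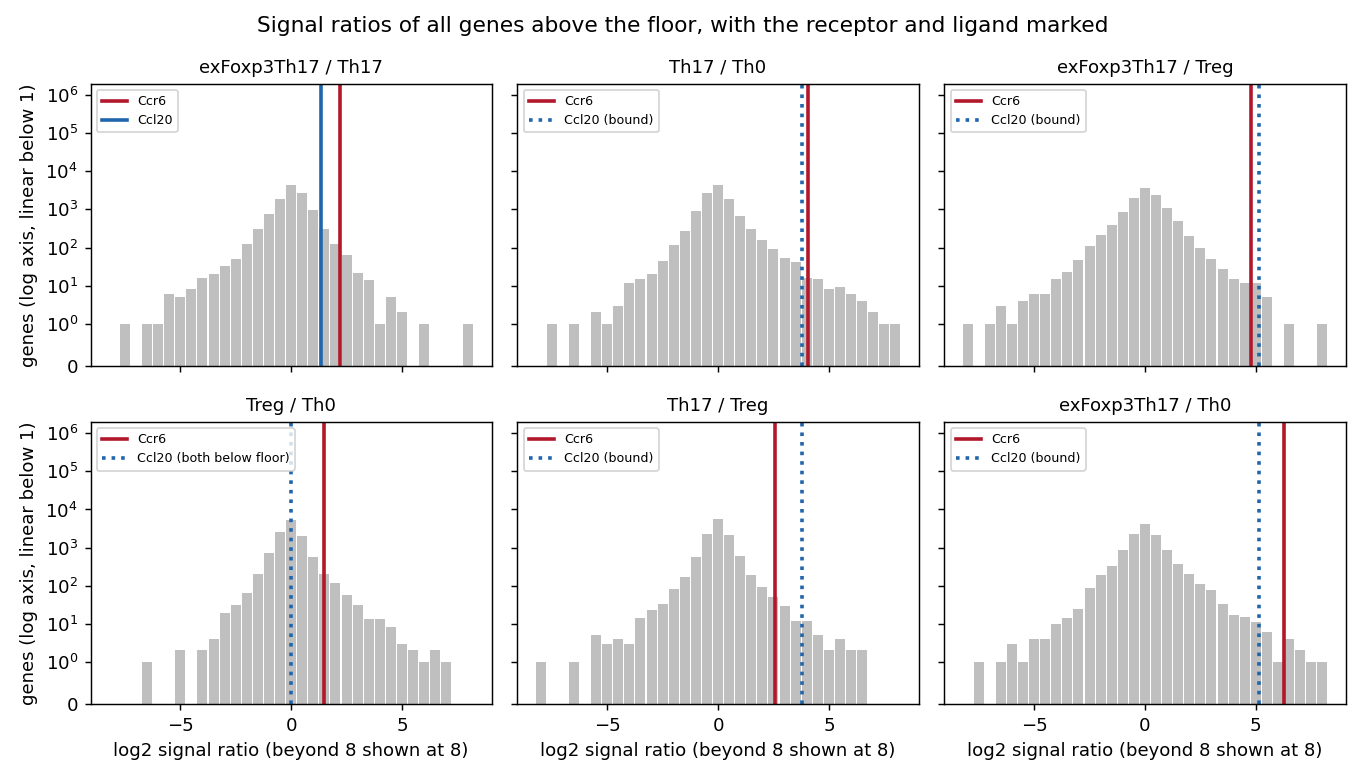
Number of genes (log axis, linear below 1) by log2 signal ratio in each of the 6 comparisons, over 11769 genes, with Ccr6 (red) and Ccl20 (blue) as vertical lines; a dotted line marks a bound or, in Treg over Th0, a gene below the floor on both arrays. Ccr6 lies to the right of 0 in each panel, from 1.47 in Treg over Th0 to 6.28 in exFoxp3Th17 over Th0.

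Cell types that carry CCR6 or make CCL20 were looked for through their markers. All 6 measured CD4 T cell markers were above the floor on each array, with summed signals of 12936 in exFoxp3Th17, 9597 in Th17, 8211 in Treg and 10995 in Th0. Of 5 measured B cell markers only Cd79b exceeded the floor, at 19.3 in exFoxp3Th17 and 55.6 in Treg, and Cd79a, Ms4a1, Pax5 and Blk were below the floor on all arrays. The B cell sum was 36.1 in exFoxp3Th17, 25.3 in Th17, 74.7 in Treg and 26.2 in Th0. The 8 dendritic and myeloid markers summed to 48.0 in exFoxp3Th17, 65.9 in Th17, 50.5 in Treg and 82.0 in Th0, with no marker over 23.4. The 6 epithelial and stromal markers summed to 41.6 in exFoxp3Th17 and 40.5 in Th17, against 121.8 in Treg and 45.7 in Th0. On each Th17 array 1 of the 6, Krt18, was above the floor, and in Treg 4 were. A second Epcam probe set was brighter in Treg, with a log2 ratio of 4.79 over Th0, where the one summed had 1.31, so the Treg sum depends on the probe set. The 3 measured CD8 T and NK markers summed to 72.1 to 98.0, mostly Cd8b1. The part of these cell types in the Ccr6 and Ccl20 signals was not tested.

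Of 6 listed markers of gamma delta T and innate lymphoid cells, 4 were measured, without the T cell receptor chain genes Tcrg-C1 and Trdc. Kit, the stem cell factor receptor, was at 74.0 in exFoxp3Th17, 38.0 in Th17, 17.4 in Treg and 6.6, below the floor, in Th0. The order was that of Ccr6, with a smaller step between the Th17 arrays. A second, dimmer probe set of Kit gave a log2 ratio of 0.28 for exFoxp3Th17 over Th17, and the brighter one gave 0.96. Il7r, which naive CD4 T cells also express, was at 3049 in exFoxp3Th17, 2378 in Th17, 297.4 in Treg and 1267 in Th0. Sox13 stayed between 10.1 and 16.4, and Blk was below the floor. The sums of the 4 markers were 3143, 2436, 339.1 and 1287 in the same order of arrays. The part of such cells in the Ccr6 signal was not tested.

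Few chemokine ligands had a signal in these cells. Of all 18193 genes, 11769 were above the floor on at least 1 array. Of 34 measured chemokine ligands, 23 were below the floor on all arrays and 11 were above it on at least 1. Ccl20 was the 1 ligand of these 11 called higher in exFoxp3Th17 than in Th17 (7.48% of all genes), and none was lower (7.27% of all genes). It was likewise the 1 ligand called higher in Th17 than in Th0 (8.22% of all genes), with the other 10 within 2-fold. Against Treg, exFoxp3Th17 had 1 ligand higher, Ccl20, and 2 lower, the inflammatory chemokines Ccl5 (2.97-fold, 32.9 against 97.7) and Ccl4 (at least 3.30-fold). Of all genes, 11.3% were called higher and 9.94% lower against Treg. The median log2 ratio of the 11 ligands was 0.00 in each of these 3 comparisons, beside 0.03, -0.02 and 0.02 for all genes.

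The receptors were less uniform. In exFoxp3Th17 against Th17, 7.48% of all genes were called higher and 7.27% lower. Of 17 chemokine receptors above the floor on any array, 5 were higher in exFoxp3Th17 than in Th17, 1 was lower and 11 were neither (median 0.24, beside 0.03 for all genes). Besides Ccr6 (4.63-fold) the higher ones were Cxcr5, the follicular homing receptor (at least 11.0-fold, 132.8 against a value below the floor), Cx3cr1, the fractalkine receptor (at least 4.26-fold), Ccr8, a receptor of skin and regulatory T cells (at least 4.09-fold), and Cxcr3, a Th1 receptor (3.67-fold, 66.1 against 18.0). Bounds and measured ratios have no order among them. The lower one was Ccr2, a receptor of inflammatory homing (at least 5.56-fold, a value below the floor against 67.2). A pair of further Ccr2 probe sets gave log2 ratios of -1.01 and -0.10. In Th17 against Th0, where 8.22% of all genes were called higher and 6.88% lower, 5 receptors were higher, 1 lower and 11 neither. The higher receptors included Gpr15, the receptor for homing to the large intestine (at least 95.9-fold). In exFoxp3Th17 against Treg, where 11.3% of genes were higher and 9.94% lower, 7 receptors were higher, 2 lower and 8 neither. Cxcr3 was 1 of the 2 lower ones, at 66.1 against 389.3 in Treg. The receptor median was 0.82, beside 0.02. These comparisons share arrays.

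**Figure D3:**
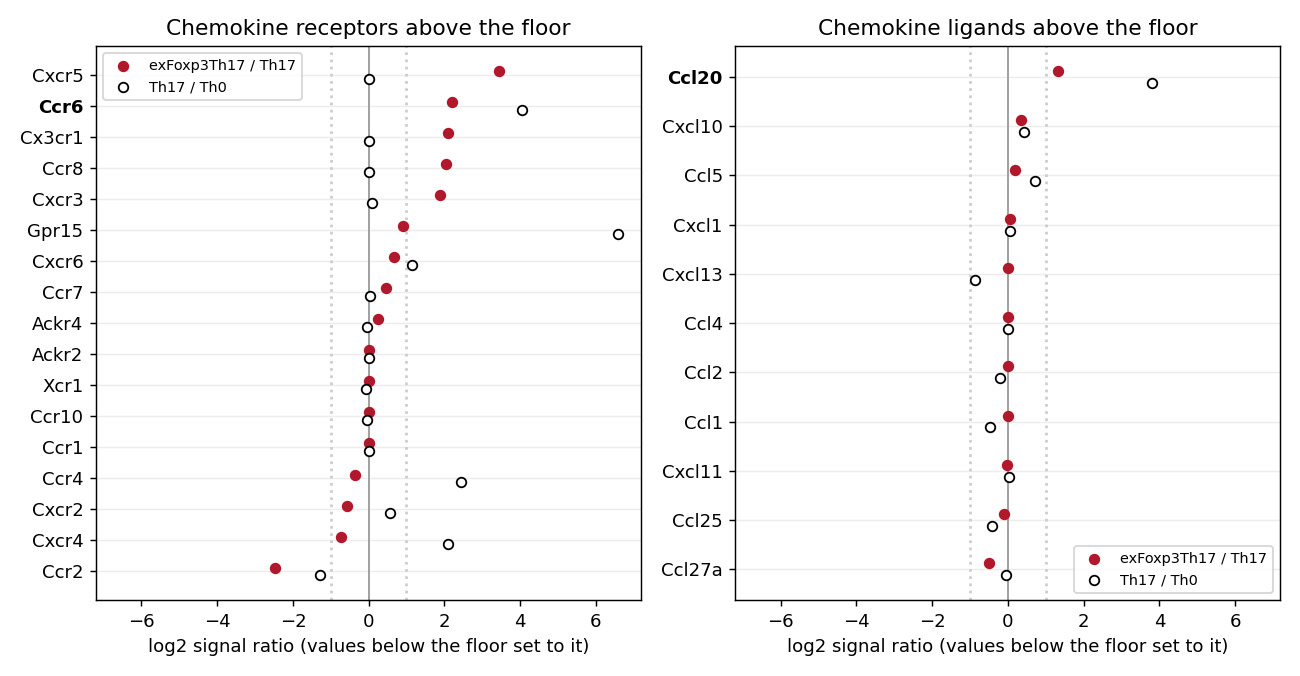
Log2 signal ratio of each chemokine receptor (left, 17 genes) and ligand (right, 11 genes) above the floor on any array, for exFoxp3Th17 over Th17 (red) and Th17 over Th0 (open), with dotted lines at 2-fold and values below the floor set to it. Ccr6 has ratios of 2.21 and 4.06, and Ccl20 of 1.34 and 3.81 (a bound).

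Genes that act downstream of the receptor were also compared between exFoxp3Th17 and Th17. Of 30 measured genes of G protein coupling, desensitization and migration signalling above the floor, 4 were higher in exFoxp3Th17 than in Th17, 4 were lower and 22 were neither (median 0.09, beside 0.03 for all genes, of which 7.48% were higher and 7.27% lower). Gnai2, the inhibitory G protein alpha chain, was within 2-fold, at 1427 in exFoxp3Th17 and 1721 in Th17. Dock2, which activates Rac in migrating lymphocytes, was also within 2-fold, at 745.3 in exFoxp3Th17 and 490.8 in Th17. Pik3cg, the catalytic chain of the PI3 kinase that G protein beta-gamma subunits activate, was 11.6-fold lower in exFoxp3Th17 (16.4 against 190.0), and its other probe set was at a log2 ratio of -3.80. Pik3r5, a regulatory chain of that kinase, was 3.49-fold lower (24.4 against 85.1). The RGS proteins, which shorten G protein signals, went both ways: Rgs1 was 11.2-fold lower (247.2 against 2759), while Rgs16 was at least 11.3-fold and Rgs10 2.87-fold higher. Of the 2 other probe sets of Rgs16, 1 was higher by 2-fold or more and the other was at 0.94.

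Known inducers of Ccr6 and Ccl20 were read on the same arrays. In Th17 against Th0, 8.22% of all genes were called higher and 6.88% lower. Of 21 inducers measured above the floor, 9 were higher, 1 lower and 11 neither (median 0.51, beside -0.02 for all genes). Maf was 178-fold higher in Th17 than in Th0, Il21 at least 40.6-fold and Ahr 40.2-fold. In Treg, Maf was at 1351, Il21 below the floor (1.7) and Ahr at 182.9. In exFoxp3Th17 over Th17 their log2 ratios were -0.47, -0.53 and -1.03, and only Ahr was called lower. The other Ahr probe set was at 0.90 in Th17 over Th0 and at -0.16 in exFoxp3Th17 over Th17. In the latter comparison the other Il21 probe set was at -2.04, and 4 others of Maf ran from -0.47 to 0.24. Rora, a nuclear receptor of the Th17 program, was at 918.3 in exFoxp3Th17, 681.7 in Th17, 106.9 in Treg and 66.3 in Th0, the same order of arrays as Ccr6. Its step between the Th17 arrays was 1.35-fold, so it did not share the 4.63-fold step of Ccr6. The 6 other probe sets of Rora had log2 ratios from -0.48 to 0.86 between the Th17 arrays. The order of Rora on these 2 arrays thus depends on the probe set. Il1r1, the IL-1 receptor, was at 106.8 in exFoxp3Th17 and 102.6 in Th17 and was below the floor in Treg (1.6) and Th0 (1.4), like Ccl20 but level between the Th17 arrays. In exFoxp3Th17 against Th17, where 7.48% of genes were higher and 7.27% lower, 3 of the 21 were higher, 4 lower and 14 neither. Their median was 0.16, beside 0.03. The higher ones included Tgfbr2, a chain of the TGF-beta receptor (2.53-fold, 2666 against 1055), and Tgfbr1 (3.87-fold), whose other probe set was at a log2 ratio of 0.51. The lower ones included Tnf, which induces CCL20 in many cells (15.3-fold, 13.3 against 204.4), and Irf4, a factor of T cell receptor signalling (13.1-fold, 80.3 against 1055). The other probe set of Irf4 was also lower, at a smaller log2 ratio of -1.65.

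Genes with the profiles most like those of the pair were sought by distance. For each gene the log2 signals on the 4 arrays were centred on their mean, and the Euclidean distance to Ccr6 or Ccl20 was taken over 8454 genes with a signal of at least 48.4 on some array. The 5 nearest to Ccr6 were Tmem176b (0.45), Tmem176a (0.62), Sestd1 (0.93), Tox2 (1.16) and Pdlim5 (1.20), and Ccl20 came sixth at 1.21. Tox2 encodes an HMG-box nuclear factor and Pdlim5 a LIM domain protein. Tmem176b, a membrane protein gene found in Th17 cells, was at 2781 in exFoxp3Th17, 763.3 in Th17, 84.9 in Treg and 42.7 in Th0. The 5 nearest to Ccl20 were Pdlim5 (0.65), Tmem176b (0.80), Tmem176a (1.10), Tnfsf13b (1.11) and Sestd1 (1.12), with Ccr6 sixth. With 2 times the floor 1 of these 5 was still among the nearest to Ccl20, which stands at the floor on 2 arrays, and with Pearson correlation 0 of the 5 were. For Ccr6 the counts were 5 and 0. Tnfsf13b, which encodes the B cell survival factor BAFF, was at 255.7 in exFoxp3Th17 and 67.5 in Th17, against 7.0 in Treg and 2.1 in Th0, both below the floor. Of the 6 other probe sets of Pdlim5, 1 was higher by 2-fold or more in exFoxp3Th17 than in Th17 and the lowest was at -0.10. The other probe set of Tnfsf13b was at 0.82 in that comparison.

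**Figure D4:**
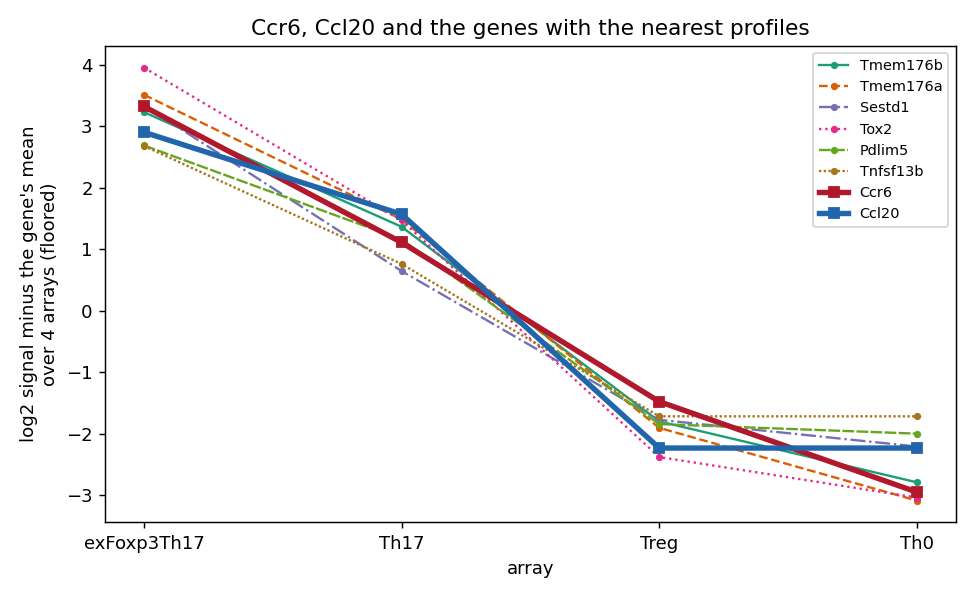
Log2 signal on the 4 arrays, centred on each gene's mean, for Ccr6, Ccl20 (thick lines) and the 6 other genes among the 5 nearest to either. All of these run from high in exFoxp3Th17 to low in Treg and Th0, and Ccr6 and Tmem176a keep a 2-fold step between Treg and Th0 where Ccl20 is flat at the floor.

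The patterns of both genes, read from their own values, were counted over all genes as a description, and no other order of the arrays was counted. A signal 2-fold or more apart at each step of the order exFoxp3Th17, Th17, Treg, Th0 was found for 5 of 11769 genes. Besides Ccr6 these were Tmem176a, Plin2, Aldh7a1 and Spsb1, and the names other than Ccr6 and Tmem176a were chosen after their values were seen. A signal 2-fold or more higher on both Th17 arrays than on both others was found for 205 genes. Of these 205, exFoxp3Th17 was a further 2-fold or more above Th17 for 40, among them Ccr6 and Ccl20, 2-fold or more below it for 17 and within 2-fold for 148. A gene below the floor in Treg and Th0 and above it on both Th17 arrays, as Ccl20 was, was found 137 times, 26 of them with the further 2-fold step. All of these counts rest on single arrays.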

How the data were processed

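Intensities on a linear scale were deposited by the authors, and the submitters' processing notes name MAS5, without a version. MAS5 condenses the probes of a probe set into 1 signal and scales each array; the deposited scaling was kept. The 45101 probe sets include 64 controls. Of the others, 34945 have 1 gene symbol, 932 several and 9160 are unnamed here; symbols were updated through a RefSeq gene table, and a gene was represented by its probe set with the highest mean log2 signal. Detection calls were not used here. With 1 array per group no test was possible, and the number of arrays limits the precision. Ratios, calls and distances were computed with Python 3.11.15, numpy 2.4.6 and pandas 2.3.3, and were tested on simulated data.

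The members, 12 gene lists and 5 promoter motifs were chosen with earlier results of these data known, and the NF-kB consensus took the place of a pair of narrower forms after their matches were seen. Besides the members, the genes named are the 5 nearest in profile to each, markers above the floor and the checks of gate and sex. Up to 4 called members of each list are also named per comparison described. Genes outside this rule, chosen after their values were seen, are Ccr8, Cxcr3, Gnai2, Dock2, Rgs10, Il1r1, Tgfbr2, Il17re, Itgal, the markers below the floor and 3 genes of the level pattern. Alternatives were 0.5 and 2 times the floor, the floor as a pseudocount, quantile normalization, equal medians, a 3-fold threshold, averaging the probe sets of a gene, and correlation as likeness.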

Additional observations from a re-analysis of the deposited data

How the results depend on the processing

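Of 82 recomputed log2 ratios and induction differences of Ccr6 and Ccl20, 78 kept their direction and their side of the threshold, and none changed sign. Part of this count is fixed by construction. The 3-fold threshold uses the main ratios again, and 0.5 times the floor leaves every Ccr6 ratio as it was. Ccl20 in Treg against Th0 stays at 0 except with the pseudocount, since both values lie below the floor. The Ccr6 ratio of exFoxp3Th17 to Th17 ranged from 2.16 to 2.27 and that of Ccl20 from 1.28 to 1.34. At a 3-fold threshold Ccl20 in exFoxp3Th17 against Th17 (1.34) and Ccr6 in Treg against Th0 (1.47) were no longer called. The larger Ccr6 ratio in Foxp3-derived than in naive-derived cells passed 2-fold with 2 times the floor (1.04) and with the floor as a pseudocount (1.10), since both compress the low Th0 value. The bounds for Ccl20 follow the floor by construction: exFoxp3Th17 over Treg ran from 4.14 to 6.14 and Th17 over Th0 from 2.81 to 4.81. With the floor as a pseudocount, Ccr6 was 10.7-fold higher in Th17 than in Th0 and 48.3-fold higher in exFoxp3Th17 than in Th0. Genes called in either direction fell at 3-fold, to 645 in place of 1736 for exFoxp3Th17 against Th17, 750 in place of 1778 for Th17 against Th0, 1094 in place of 2498 for exFoxp3Th17 against Treg, 470 in place of 1236 for Treg against Th0, 476 in place of 1132 for Th17 against Treg, and 996 in place of 2159 for exFoxp3Th17 against Th0; with 0.5 times the floor Treg against Th0 had 1857. Of the 5 genes nearest to Ccr6, 5 were shared under 2 times the floor and under quantile normalization and 0 under Pearson correlation; of those nearest to Ccl20, 1, 4 and 0 were shared. Correlation over 4 arrays ignores the size of a change. No paired analysis was possible because each group has 1 array, and leaving out a replicate was impossible for the same reason.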

Other observations

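Genes of T cell adhesion and exit from tissue, through which a CCR6+ cell acts once attracted, were also read. Of 11 measured integrin, selectin-ligand and egress genes, 3 were higher in exFoxp3Th17 than in Th17, 1 was lower and 7 were neither. Their median was 0.21, beside 0.03 for all genes, of which 7.48% were called higher and 7.27% lower. Itgal, the alpha chain of the LFA-1 integrin that chemokine receptors activate, was at 1685 in exFoxp3Th17 and 1348 in Th17. Itgae, the alpha chain of the integrin that binds E-cadherin, was 27.8-fold higher (1298 against 46.7), and its other probe set was at a log2 ratio of 4.76. Itga4, the alpha 4 integrin chain, was 4.68-fold higher (63.7 against 13.6), while Itgb1, one of its beta chain partners, was 3.19-fold lower (127.4 against 406.5). S1pr1, the receptor for lymphocyte egress, was 2.02-fold higher (278.9 against 138.0).

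Of 12 cytokine and surface genes of Th17 cells above the floor, 5 were higher in exFoxp3Th17 than in Th17, 4 lower and 3 neither. Their median was 0.37, beside 0.03 for all genes, of which 7.48% were called higher and 7.27% lower. Klrb1f, a killer lectin-like receptor, was 9.39-fold higher (426.1 against 45.4) and Il17re, the IL-17C receptor chain, 6.00-fold higher (432.8 against 72.2), with 1 of its 2 other probe sets at 0.80 on the log2 scale. Il10, the anti-inflammatory cytokine, was at least 33.7-fold lower in exFoxp3Th17 (a value below the floor against 407.7). Ltb4r1, the leukotriene B4 receptor and like Ccr6 a chemoattractant receptor, was 19.1-fold lower (23.4 against 446.8).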
